A study of Homo sapiens with 9 samples.

Results

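Interferon regulatory factors (IRFs) and the IRF2-binding proteins were followed at the RNA level in Jurkat Clone E6-1, an established human leukaemic T-cell line that is 1 clone, during activation through the T-cell receptor. The set held 10 genes of the 19569 in the deposited count table: the IRF family genes IRF1, IRF2, IRF3, IRF4, IRF7, IRF8 and IRF9, and the binding-protein genes IRF2BP1, IRF2BP2 and IRF2BPL. They were selected on family membership with the changes in these same 9 libraries already known, so every value of the 10 genes is given as a description and none carries a p-value. Cells activated for 5 h or 12 h, by anti-CD3 (10 µg/mL) fixed to the plate together with soluble anti-CD28 (5 µg/mL), were set against non-activated cells (0 h). Each group had 3 libraries, all of the same line with no labelled genetic change. All 10 genes had 1 row each in the table and all 10 passed the filter on low counts. IRF4 passed it only through its 5 h libraries.

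IRFs are DNA-binding proteins that recognise GAAA repeats in interferon-stimulated response elements, and they sit on both sides of the interferon system. IRF3 and IRF7 are held in the cytoplasm until kinases downstream of nucleic acid sensors phosphorylate them, after which they switch on type I interferon genes. IRF9 joins STAT proteins in the complex ISGF3, which carries the signal from the interferon receptors to target genes. IRF1 activates and IRF2 mostly represses an overlapping group of targets, and IRF1 is itself a classic interferon-induced gene. IRF4 and IRF8 are the lymphoid and myeloid members that bind DNA weakly alone and pair with partners such as PU.1 or AP-1, and IRF4 is known in T cells for its induction by receptor signalling. The IRF2BP proteins carry a zinc finger and a RING domain, and IRF2BP1 and IRF2BP2 were described as corepressors that bind IRF2. IRF2BP2 also binds the T-cell factor NFAT1 and the coactivator VGLL4.

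Before the values, 3 promoter windows are shown because, among the windows found for these genes, these hold a match to a STAT recognition pattern, in a pair of genes that were called higher at 5 h than at 0 h and in one that was not. The windows are RefSeq sequences on GRCh38.p14 from 250 bases before to 50 bases after a start site, written 5′ to 3′ on the gene's strand, with matches in capitals. The capitals mark a gamma-activated site (GAS, TTCNNNGAA), a pattern bound by STAT proteins, and in IRF1 also a match to the NF-κB consensus. IRF1 is shown from chr5:132490724-132491023 on the minus strand, IRF9 from chr14:24161015-24161314 on the plus strand and IRF2BP1 from chr19:45886092-45886391 on the minus strand.
IRF1: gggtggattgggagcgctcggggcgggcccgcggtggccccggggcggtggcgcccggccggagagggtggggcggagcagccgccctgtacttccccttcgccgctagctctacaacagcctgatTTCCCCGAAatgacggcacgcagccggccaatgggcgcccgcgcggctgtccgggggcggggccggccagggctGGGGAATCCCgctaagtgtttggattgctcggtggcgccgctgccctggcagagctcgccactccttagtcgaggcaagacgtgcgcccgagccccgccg
IRF9: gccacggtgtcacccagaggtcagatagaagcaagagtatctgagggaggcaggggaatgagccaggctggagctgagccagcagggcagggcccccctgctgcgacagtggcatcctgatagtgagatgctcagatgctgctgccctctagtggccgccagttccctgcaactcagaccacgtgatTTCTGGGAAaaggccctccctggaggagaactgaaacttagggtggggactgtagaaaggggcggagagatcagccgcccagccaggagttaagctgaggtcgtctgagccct
IRF2BP1: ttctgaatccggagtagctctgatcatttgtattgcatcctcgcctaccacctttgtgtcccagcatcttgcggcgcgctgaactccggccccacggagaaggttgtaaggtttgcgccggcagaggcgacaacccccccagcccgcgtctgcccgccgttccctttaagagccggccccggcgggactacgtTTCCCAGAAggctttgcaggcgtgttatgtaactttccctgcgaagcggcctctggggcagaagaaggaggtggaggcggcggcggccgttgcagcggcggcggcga
The GAS match began 124 bases before the start site in IRF1 (TTCCCCGAA), 63 before it in IRF9 (TTCTGGGAA) and 57 before it in IRF2BP1 (TTCCCAGAA). The NF-κB match of IRF1 (GGGGAATCCC) began 50 bases before the start site and shared no base with the GAS match. The RefSeq start site lies inside the GENCODE gene by 25 bases in IRF1, 212 in IRF9 and 29 in IRF2BP1, so the IRF9 match lies within the gene as GENCODE draws it.

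Windows were found for 7 of the 10 genes, namely IRF1, IRF4, IRF8, IRF9, IRF2BP1, IRF2BP2 and IRF2BPL. Over all 34943 windows of the same length, 7.66% held the GAS pattern on either strand, 5.90% the NF-κB consensus, 7.72% the AP-1 pattern TGANTCA and 3.57% the doubled IRF element GAAANNGAAA. No window of the 7 genes held these letters for AP-1 or for the doubled IRF element, which says nothing of whether the factors bind there. GC content was 73.7% in the IRF1 window, 60.0% in that of IRF9 and 63.3% in that of IRF2BP1, against a median of 58.7% over all windows. The IRF8 windows lay about 4 kb inside the gene, 4027 and 4212 bases from its GENCODE start, and were not used further.

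Library totals ran from 4222258 to 9359187 counts, and the shallowest library was replicate 1 of the 12 h group. The 12 T-cell markers in the table were all above 1 CPM (counts scaled to 1e6 by TMM-adjusted library size), with a summed level of 5891 to 6914 CPM at 0 h, 6079 to 7096 CPM at 5 h and 5895 to 6819 CPM at 12 h. Of 10 myeloid markers 2 were tested, and CD163, FCGR1A and S100A8 had no count in any library. Of 10 B-cell markers, CD22 had no count and PAX5 had 3 counts in all 9 libraries, while CD79A averaged 177 CPM at 0 h, 101 CPM at 5 h and 142 CPM at 12 h. The B-cell list summed to 214 to 266 CPM at 0 h, 115 to 144 CPM at 5 h and 163 to 190.2 CPM at 12 h. The plasmacytoid dendritic cell genes CLEC4C and LILRA4 had 2 and 1 counts in all. Their list of 5 genes, 2 of them tested, summed to between 8.14 and 11.0 CPM in all 9 libraries. The NK-cell list of 6 genes, also with 2 tested, summed to 24.7 to 31.6 CPM at 0 h, 30.8 to 36.3 CPM at 5 h and 23.5 to 26.2 CPM at 12 h. The part of other cell types in the levels below was not tested beyond these values.

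At 5 h against 0 h, 7 of the 10 genes were called higher and none lower, at an edgeR adjusted p under 0.05 across all 12036 genes tested. Of all tested genes 49.7% were called in that comparison, 24.9% higher and 24.8% lower. At 12 h against 0 h, 6 were called higher and none lower, where 51.1% of all genes were called, 26.3% higher and 24.8% lower. Between 12 h and 5 h, 2 were called higher and 4 lower, where 36.1% of all genes were called, 18.1% higher and 18.0% lower. Nothing is read from these counts, since results of the same comparisons were known when the genes were chosen. For the same reason a call of any of the 10 genes, here and below, is its label in the fit of all genes and no test of that gene. The median log2 fold change of the 10 genes was 1.05 at 5 h against 0 h, 0.87 at 12 h against 0 h and -0.10 at 12 h against 5 h, and over all tested genes it was 0.00, -0.00 and 0.01. The comparisons at 5 h and 12 h share the 0 h libraries, so their values are given side by side only.

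**Figure D1:**
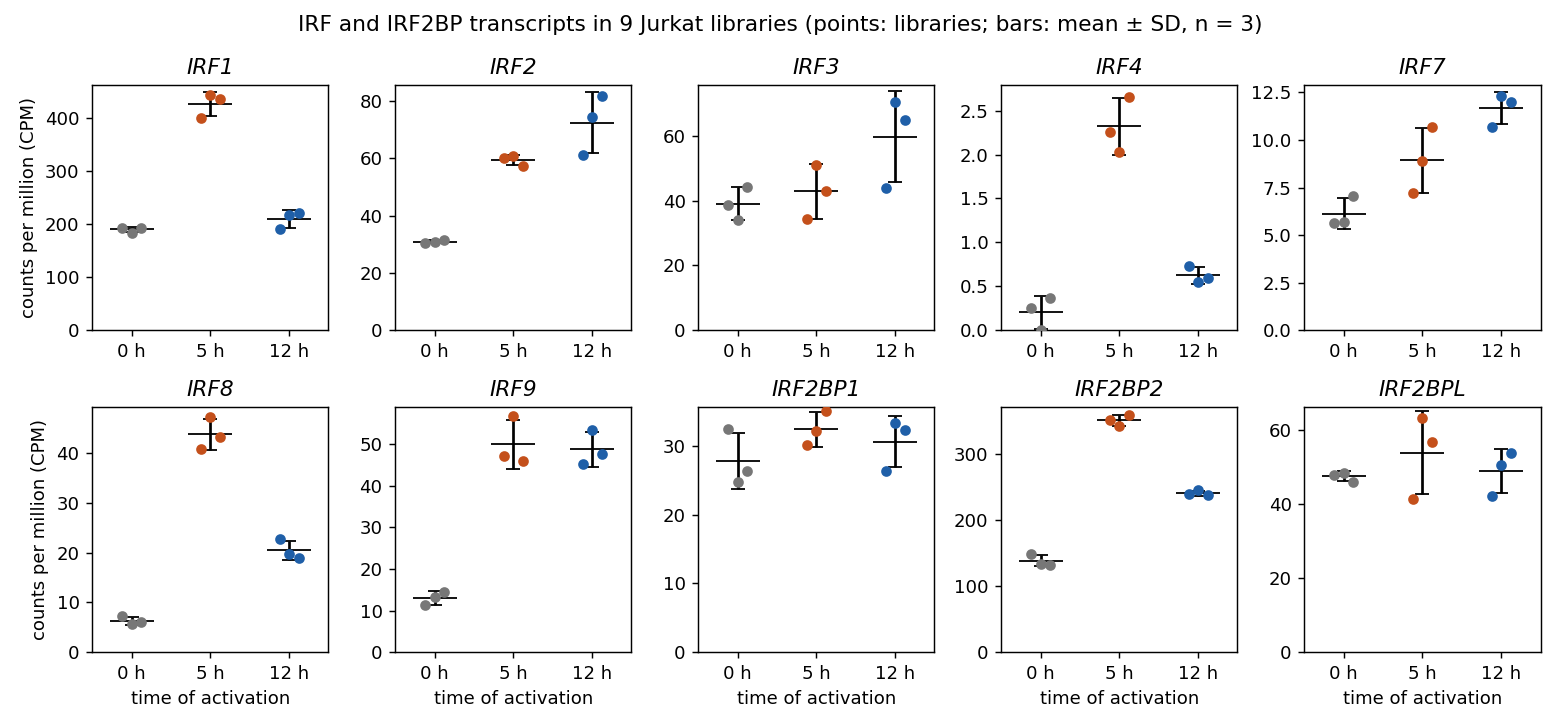
Level of each of the 10 genes in each library, in CPM on a linear axis that starts at 0, by time of activation (0, 5 and 12 h). Points are libraries and bars are the mean ± SD of 3 libraries; IRF1, IRF4, IRF8 and IRF2BP2 stood highest at 5 h, IRF9 was at 49.9 and 48.7 CPM at 5 h and 12 h, and IRF2BP1 and IRF2BPL overlapped across all times.

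The time courses took 4 forms. IRF1, IRF4, IRF8 and IRF2BP2 were highest at 5 h and called lower at 12 h than at 5 h. IRF9 was called higher at both 5 h and 12 h than at 0 h, and its 5 h and 12 h ranges overlapped. IRF2, IRF3 and IRF7 had their highest mean at 12 h. IRF2BP1 and IRF2BPL were called in no comparison. RNA was measured in bulk, so fewer cells with a transcript and less of it per cell cannot be told apart.

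IRF1, on chromosome 5 from 132481609 to 132490798 (GRCh38, minus strand), was the most abundant of the family. Its level was 194, 184 and 193 CPM at 0 h, then 401, 444 and 437 CPM at 5 h, and 190.3, 218 and 222 CPM at 12 h. The 5 h libraries lay clear of the other 6, and the 12 h range overlapped the 0 h range. The fitted log2 fold change was 1.17 ± 0.09 (SE) at 5 h against 0 h, a 2.24-fold higher level, and -1.02 ± 0.09 at 12 h against 5 h. The value was 0.14 ± 0.09, not called, at 12 h against 0 h. AC116366.3, a protein-coding gene on the opposite strand that shares 469 exonic bases with IRF1, averaged 71.3 ± 13.7 CPM at 0 h, 58.4 ± 7.57 CPM at 5 h and 71.8 ± 17.1 CPM at 12 h (SD, n = 3). It was called in none of the comparisons (log2 fold change -0.29, edgeR adjusted p = 0.112 at 5 h against 0 h). C5orf56, also on the opposite strand, shares 1716 exonic bases and had no row in the deposited counts. The use of strand in counting is not given in the sources used here, so reads of the shared bases cannot be told apart.

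IRF2, the repressor of many of the same targets, is on chromosome 4 from 184387713 to 184474580 (minus strand). It stood at 30.4, 30.8 and 31.5 CPM at 0 h, at 60.0, 60.7 and 57.3 CPM at 5 h, and at 61.3, 74.5 and 81.9 CPM at 12 h. The 3 ranges were separate and followed the order of time. RF00152 and AC099343.2 lie within IRF2, share 0 exonic bases with it and had no row in the deposited counts. The log2 fold change was 0.94 ± 0.11 at 5 h against 0 h and 1.24 ± 0.11 at 12 h against 0 h. At 12 h against 5 h it was 0.30 ± 0.11, a call that was lost when any one of the 5 h libraries (0.28 to 0.32) or 12 h replicate 2 (0.29) or 3 (0.21) was left out.

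The balance of IRF1 to IRF2 within a library was lowest at 12 h. The log2 ratio of IRF1 to IRF2 CPM was 2.67, 2.58 and 2.62 at 0 h, 2.74, 2.87 and 2.93 at 5 h, and 1.64, 1.55 and 1.44 at 12 h. All 3 libraries at 12 h lay below the other 6, with a mean of 1.54 ± 0.10 at 12 h against 2.62 ± 0.05 at 0 h (SD, n = 3). These are ratios of counts that are not scaled for transcript length, and the use of transcript isoforms at each time was not measured.

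**Figure D2:**
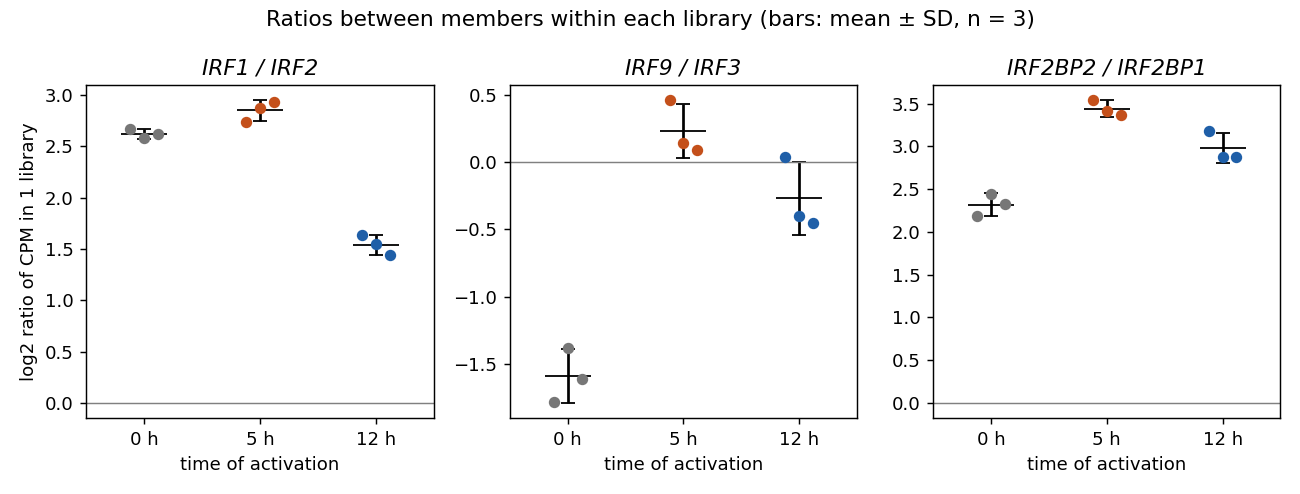
Log2 ratio of CPM between 2 genes within each library, by time of activation, for IRF1 over IRF2, IRF9 over IRF3 and IRF2BP2 over IRF2BP1. Points are libraries, bars are the mean ± SD of 3 and the grey line marks equal CPM; IRF1 over IRF2 is lowest at 12 h (mean 1.54), and both other ratios are lowest at 0 h (means -1.59 and 2.32).

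IRF9, the DNA-binding subunit of ISGF3, is on chromosome 14 from 24161053 to 24166565 (plus strand). It had 11.3, 13.2 and 14.5 CPM at 0 h, 47.1, 56.6 and 45.9 CPM at 5 h, and 45.1, 53.4 and 47.5 CPM at 12 h. The activated libraries at both times lay above every 0 h library and overlapped each other. IRF9 had a log2 fold change of 1.94 ± 0.13 at 5 h against 0 h and 1.91 ± 0.13 at 12 h against 0 h, and at 12 h against 5 h it was -0.03 ± 0.12. The gene model AL136295.5 shares 5513 bases with IRF9 on the same strand, 1838 of them exonic in both. AL136295.5 had no row in the deposited counts. The longest coding transcript of IRF9 has 1838 bases. How reads of shared bases were assigned is not given in the sources used here, and the part of AL136295.5 in the IRF9 level was not tested.

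IRF3, the constitutively present factor that sensors activate, is on chromosome 19 from 49659569 to 49665875 (minus strand). It varied more between replicates, with 38.6, 34.2 and 44.4 CPM at 0 h, 34.3, 51.2 and 43.1 CPM at 5 h, and 43.9, 70.4 and 65.0 CPM at 12 h. The 12 h range overlapped both others through replicate 1. The log2 fold change was 0.13 ± 0.16 at 5 h against 0 h, not called, and 0.63 ± 0.16 at 12 h against 0 h, called higher. Between 12 h and 5 h it was 0.50 ± 0.16, and that call was lost without 5 h replicate 1 (0.36) or 12 h replicate 2 (0.37) or 3 (0.45). BCL2L12, which shares 734 exonic bases with IRF3 on the opposite strand, averaged 23.2 CPM at 0 h, 25.5 CPM at 5 h and 25.3 CPM at 12 h and was not called in any of the 3 comparisons.

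The log2 ratio of IRF9 to IRF3 CPM within a library was -1.78, -1.38 and -1.61 at 0 h, 0.46, 0.14 and 0.09 at 5 h, and 0.04, -0.40 and -0.45 at 12 h. Every activated library lay above every 0 h library.

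IRF7, the inducible partner of IRF3 and itself a known ISGF3 target, is on chromosome 11 from 612553 to 615999 (minus strand). It was scarce, with 5.63, 5.68 and 7.07 CPM at 0 h, 7.22, 8.92 and 10.7 CPM at 5 h, and 10.7, 12.3 and 12.0 CPM at 12 h. The lowest 5 h library stood just above the highest 0 h library. The log2 fold change was 0.94 ± 0.19 at 12 h against 0 h. At 5 h against 0 h it was 0.54 ± 0.20, and that call was lost with DESeq2 (0.54) and without 0 h replicate 1 (0.47) or 2 (0.48) or 5 h replicate 2 (0.53) or 3 (0.40). The value was 0.40 ± 0.19, not called, at 12 h against 5 h.

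IRF8, best known from myeloid and B cells, showed the widest range of group means of the 10 genes, 2.62 on the log2(CPM + 1) scale. It is on chromosome 16 from 85898803 to 85922609 (plus strand), and MIR6774 within it shares 0 exonic bases and had no row in the deposited counts. The IRF8 level was 7.29, 5.68 and 5.98 CPM at 0 h, 40.9, 47.2 and 43.2 CPM at 5 h, and 22.7, 19.8 and 19.0 CPM at 12 h. The 3 ranges did not touch. IRF8 had a log2 fold change of 2.79 ± 0.14 at 5 h against 0 h, a 6.90-fold higher level, 1.68 ± 0.15 at 12 h against 0 h and -1.11 ± 0.13 at 12 h against 5 h. Beside it, the myeloid list summed to 6.39 to 9.57 CPM at 0 h, 7.99 to 11.9 CPM at 5 h and 10.0 to 12.0 CPM at 12 h. Its most abundant gene, CD68, averaged 5.64 CPM at 0 h, 7.61 CPM at 5 h and 8.94 CPM at 12 h. LYZ averaged 1.28, 1.69 and 1.47 CPM and CD14 0.819, 0.584 and 0.343 CPM at the same times, and the part of these cells in the IRF8 level was not tested.

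IRF4, the family member most tied to receptor strength in T cells, is on chromosome 6 from 391739 to 411447 (plus strand) and was close to the limit of detection. Its counts were 2, 0 and 3 at 0 h, 15, 15 and 17 at 5 h, and 3, 5 and 4 at 12 h. The highest level in any library was 2.66 CPM. With counts pooled per group and scaled by library size, IRF4 was 10.4-fold higher at 5 h than at 0 h, with a 95% exact counting interval of 4.17 to 33.7. The ratio was 2.72 at 12 h against 0 h (0.893 to 9.86) and 0.261 at 12 h against 5 h (0.126 to 0.499). These intervals cover counting error only. They do not cover the choice of IRF4 with these values known or its passing the filter only through the 5 h libraries, and they are no test. The fitted log2 fold change at 5 h against 0 h was 3.29 ± 0.57, with 2.81 without 0 h replicate 2 and 3.90 without 0 h replicate 3. The value was 1.39 ± 0.73, not called, at 12 h against 0 h, with 0.91 and 2.0 without the same libraries.

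The family gene IRF5 was below the filter. It had 17, 9 and 11 counts over the 3 libraries at 0, 5 and 12 h, and no fold was fitted.

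**Figure D3:**
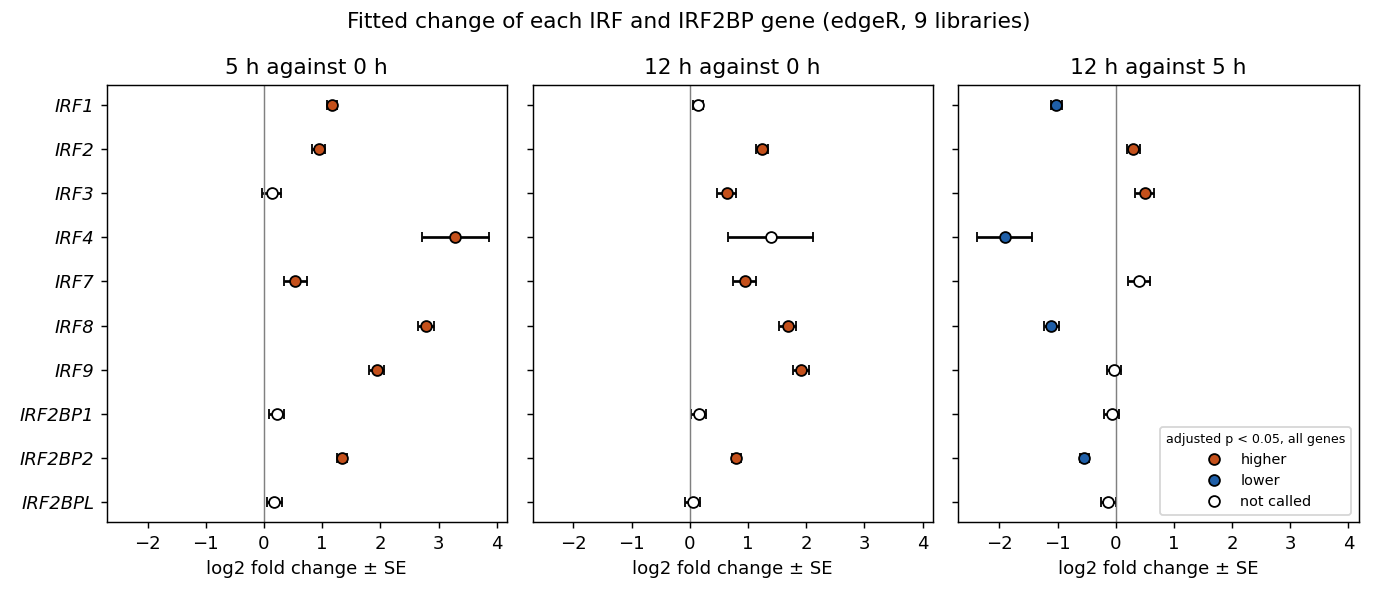
Fitted log2 fold change ± SE of each gene in the 3 comparisons, from 1 edgeR fit of all 9 libraries. Filled points passed an adjusted p under 0.05 across all genes (7, 6 and 6 of 10) and open points did not; IRF4 has the widest SE (0.57, 0.73 and 0.48).

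Of the IRF2BP genes, IRF2BP2 alone was called. It lies on chromosome 1 from 234604269 to 234609525 (minus strand). It had 148, 134 and 132 CPM at 0 h, 350.5, 342 and 359 CPM at 5 h, and 239, 245 and 238 CPM at 12 h. The groups were well apart, with a coefficient of variation between replicates of 6.05% at 0 h, 2.47% at 5 h and 1.60% at 12 h. IRF2BP2 had a log2 fold change of 1.34 ± 0.08 at 5 h against 0 h, 0.80 ± 0.08 at 12 h against 0 h and -0.54 ± 0.08 at 12 h against 5 h. An antisense gene, AL160408.2, shares 693 exonic bases with it and had no row in the deposited counts.

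IRF2BP1 (chromosome 19, 45883607 to 45886170, minus strand) had 32.5, 24.7 and 26.3 CPM at 0 h, 30.1, 32.2 and 35.1 CPM at 5 h, and 26.4, 33.3 and 32.3 CPM at 12 h. IRF2BPL (chromosome 14, 77024543 to 77028699, minus strand), a paralogue known for its role in neurons, had 47.8, 48.4 and 45.9 CPM at 0 h, 41.3, 63.2 and 56.6 CPM at 5 h, and 42.2, 50.4 and 53.8 CPM at 12 h. All ranges of these 2 genes overlapped between times. The log2 fold change at 5 h against 0 h was 0.22 ± 0.13 for IRF2BP1 and 0.18 ± 0.13 for IRF2BPL. Without 5 h replicate 1 the IRF2BPL value was 0.34 and was called. IRF2BP1, whose window held a GAS match, and IRF2BPL each have a single exon in GENCODE release 29, and IRF2BP2 has 2 in its longest coding transcript. AC007686.3, an antisense gene that shares 614 exonic bases with IRF2BPL, had no row in the deposited counts.

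IRF2BP2 took a larger share of the 3 IRF2BP transcripts in activated cells. Counted per kilobase of the longest coding transcript, it made up 56.7, 57.5 and 57.1% of their sum at 0 h, 77.6, 72.5 and 73.8% at 5 h, and 71.5, 67.7 and 66.6% at 12 h. No activated library overlapped a 0 h library. The log2 ratio of IRF2BP2 to IRF2BP1 CPM averaged 2.32 ± 0.13 at 0 h, 3.44 ± 0.10 at 5 h and 2.98 ± 0.17 at 12 h (SD, n = 3).

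To compare levels between genes, CPM was divided by the length of the longest coding transcript in kilobases. At 0 h the order was IRF1 (53.2 CPM per kb), IRF2BP2 (29.6), IRF3 (22.4), IRF2 (13.4), IRF2BPL (11.4), IRF2BP1 (10.9), IRF9 (7.06), IRF7 (2.99), IRF8 (2.08) and IRF4 (0.0389). Only IRF2BPL and IRF2BP1 overlapped among those neighbours. At 5 h the order was IRF1 (119 CPM per kb), IRF2BP2 (75.2), IRF9 (27.1), IRF2 (25.8), IRF3 (24.6), IRF8 (14.4), IRF2BPL (12.9), IRF2BP1 (12.7), IRF7 (4.35) and IRF4 (0.434). IRF9, IRF2 and IRF3 did not differ beyond their spread, nor did IRF8 and IRF2BPL, or IRF2BPL and IRF2BP1. At 12 h the order was IRF1 (58.7 CPM per kb), IRF2BP2 (51.5), IRF3 (34.3), IRF2 (31.5), IRF9 (26.5), IRF2BP1 (11.9), IRF2BPL (11.7), IRF8 (6.76), IRF7 (5.70) and IRF4 (0.117). Overlaps there joined IRF3 with IRF2, IRF2 with IRF9, and IRF2BP1 with IRF2BPL. With the mean length of all coding transcripts IRF1 stayed first at each time, while other ranks moved. At 0, 5 and 12 h IRF2BP2 ranked 4, 2 and 4, IRF2 ranked 2, 3 and 2, IRF9 ranked 5, 4 and 5, and IRF8 ranked 8, 6 and 6.

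The genes whose levels followed the 3 most variable members most closely were found by Pearson's r of log2(CPM + 1) over the 9 libraries, which share 3 time points and so give few independent points. XIRP1 (r = 0.9963), IRF2BP2 (r = 0.9956) and C11orf96 (r = 0.9953) were most like IRF8. XIRP1, a striated muscle actin-binding protein, summed to 2 counts in the 0 h group, 765 in the 5 h group and 130 in the 12 h group. Its ratio was 425 at 5 h against 0 h, with a 95% counting interval of 117 to 3517. That interval is no test, since XIRP1 was picked on these same libraries for its likeness to IRF8. BICDL1 (r = 0.9941), CLEC2B (r = 0.9939) and CWC25 (r = 0.9937) were most like IRF9. CLEC2B averaged 20.9 ± 3.60 CPM at 0 h, 70.6 ± 4.40 CPM at 5 h and 72.4 ± 7.99 CPM at 12 h (SD, n = 3). ZDBF2 (r = 0.9932), ATP2B1 (r = 0.9850) and CXCL8 (r = 0.9790) were most like IRF4. ATP2B1, a plasma membrane calcium pump, averaged 72.3 ± 2.98 CPM at 0 h, 172 ± 18.5 CPM at 5 h and 96.2 ± 12.1 CPM at 12 h. By Spearman's rho ZDBF2 stayed first for IRF4, and other genes led for IRF8 (SLC2A3, IL23A and FAM193A) and for IRF9 (CHMP4A, MMP14 and TBC1D25). By rho XIRP1, IRF2BP2 and C11orf96 ranked 9, 109 and 27 for IRF8. BICDL1, CLEC2B and CWC25 ranked 1027, 8 and 73 for IRF9, and ATP2B1 and CXCL8 ranked 4 and 174 for IRF4.

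The pathways around the 10 genes were followed in lists of 183 genes in all, of which 148 were tested. The lists too were drawn up with results of these libraries known. At 5 h against 0 h 66 genes rose and 27 fell (62.8% called, against 49.7% of all genes). At 12 h against 0 h 69 rose and 22 fell (61.5%, against 51.1%), and at 12 h against 5 h 21 rose and 37 fell (39.2%, against 36.1%). The median log2 fold change over the lists was 0.25, 0.27 and -0.05, beside 0.00, -0.00 and 0.01 over all genes. Each list below stands beside the same shares over all genes. These were 24.9% higher and 24.8% lower at 5 h against 0 h, and 26.3% and 24.8% at 12 h against 0 h. At 12 h against 5 h they were 18.1% and 18.0%.

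**Figure D4:**
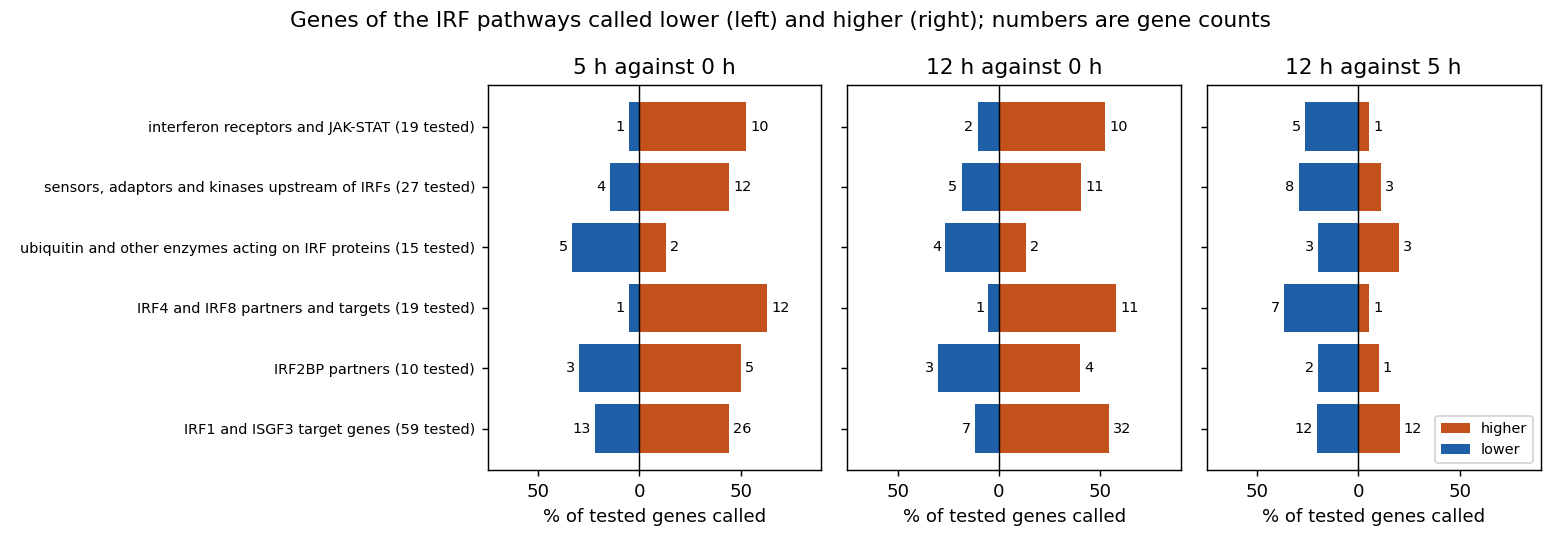
Percent of the tested genes of each pathway list called higher (right of 0) or lower (left of 0) in the 3 comparisons, with the number of genes at each bar. Receptors and JAK-STAT had 10 higher and 1 lower of 19 at 5 h against 0 h, and the enzymes that act on IRF proteins had 2 higher and 5 lower of 15. Over all tested genes 24.9% were called higher and 24.8% lower in that comparison.

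Of 21 interferon genes, 1 passed the filter: IFNG, which encodes the type II interferon that activated T cells make. The IFNG counts summed to 3 in the 0 h group, 317 in the 5 h group and 44 in the 12 h group. The IFNG ratio was 117 at 5 h against 0 h (95% counting interval 39.8 to 573) and 16.6 at 12 h against 0 h (5.33 to 83.7). These intervals cover counting error only and are no test, since IFNG passed the filter only through its activated libraries. At 12 h against 5 h IFNG fell (log2 fold change -2.78 ± 0.26 SE, edgeR adjusted p = 1.16e-07). IFNB1, a type I interferon gene that IRF3 switches on, summed to 0 counts in the 0 h group, 7 in the 5 h group and 1 in the 12 h group, and a count of 0 allows up to 3. The IFNA genes had no count in any library.

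Among 19 interferon receptor and JAK-STAT genes, 10 rose and 1 fell at 5 h against 0 h (median log2 fold change 0.43), and 10 rose and 2 fell at 12 h against 0 h (0.35). STAT2, a subunit of ISGF3, rose at both times, with 48.3 ± 4.54 CPM at 0 h, 75.2 ± 8.37 CPM at 5 h and 95.7 ± 11.7 CPM at 12 h (SD, n = 3; edgeR adjusted p = 8.75e-05 and 4.21e-07). JAK2, a kinase of the interferon-gamma receptor, rose at 5 h (log2 fold change 1.71, adjusted p = 5.46e-09), as did the type I receptor chain IFNAR2 (0.98, adjusted p = 9.25e-09). SOCS1, which blocks JAK kinases, averaged 4.66 ± 0.0818 CPM at 0 h, 38.1 ± 3.52 CPM at 5 h and 9.39 ± 0.589 CPM at 12 h. The receptor chain IFNGR2 fell at 12 h against 0 h (log2 fold change -0.59, adjusted p = 0.0026). USP18, a brake on the type I receptor, fell in both comparisons with 0 h (-0.51 and -0.96, adjusted p = 0.0127 and 7.43e-05), and the 5 h call was lost without 5 h replicate 1 (adjusted p = 0.0754).

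Among 27 tested sensors, adaptors and kinases upstream of IRF3 and IRF7, 12 rose and 4 fell at 5 h against 0 h (median log2 fold change 0.24), and 11 rose and 5 fell at 12 h against 0 h (0.09). STING1, the adaptor of cytosolic DNA sensing, averaged 105 ± 12.3 CPM at 0 h, 33.4 ± 3.05 CPM at 5 h and 63.7 ± 9.89 CPM at 12 h (log2 fold change -1.65 at 5 h, edgeR adjusted p = 5.7e-10). MAVS, the adaptor of RNA sensing, fell at 5 h (-0.49, adjusted p = 8.98e-05), and RIPK1 fell at 12 h against 0 h (-1.27, adjusted p = 9.57e-09). The RNA sensor IFIH1 rose at 5 h (1.32, adjusted p = 1.09e-07). So did TBKBP1 (2.03, adjusted p = 4.67e-09) and TANK (1.28, adjusted p = 1.57e-07), both of which bind the kinase TBK1. DHX58, a regulator of RNA sensing, rose at 12 h against 0 h (1.17, adjusted p = 9.03e-06) and stood at 0.17 at 5 h (adjusted p = 0.449).

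Of 15 enzymes that act on IRF proteins, 2 rose and 5 fell at 5 h against 0 h (median log2 fold change 0.04), and 2 rose and 4 fell at 12 h against 0 h (-0.05). The share called over all genes was 49.7% and 51.1% in these comparisons, and nothing is read from the counts of this list. TNFAIP3, a ubiquitin-editing enzyme and a known NF-κB target, averaged 114 ± 4.65 CPM at 0 h, 816 ± 33.6 CPM at 5 h and 595 ± 22.0 CPM at 12 h (log2 fold change 2.84 at 5 h, edgeR adjusted p = 3.12e-16). TRIM21, a ubiquitin ligase for several IRFs, rose at 5 h (0.54, adjusted p = 0.000832). The acetyltransferase KAT2B fell at 5 h (-1.04, adjusted p = 7.56e-06), as did the deacetylase HDAC1 (-0.43, adjusted p = 0.000349).

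Of 19 tested partners and targets of IRF4 and IRF8, 12 rose and 1 fell at 5 h against 0 h (median log2 fold change 0.89), and 11 rose and 1 fell at 12 h against 0 h (0.77). BHLHE40, a repressor induced by receptor signalling, averaged 2.93 ± 0.468 CPM at 0 h, 69.4 ± 4.62 CPM at 5 h and 12.3 ± 1.34 CPM at 12 h (log2 fold change 4.55 at 5 h, edgeR adjusted p = 1.26e-15). BCL6, a transcriptional repressor known from follicular helper T cells, averaged 3.46 ± 0.663 CPM at 0 h, 61.7 ± 3.62 CPM at 5 h and 67.0 ± 7.77 CPM at 12 h (4.14, adjusted p = 6.54e-15). REL, an NF-κB subunit known to induce IRF4, rose at 5 h (2.60, adjusted p = 3.24e-13) and was lower at 12 h than at 5 h (-1.42, adjusted p = 1.84e-08). NFATC1 moved likewise (1.45, adjusted p = 1.94e-10, then -1.26, adjusted p = 1.23e-08). PRDM1, a known IRF4 target, was scarce, with 0.625 CPM at 0 h, 3.01 CPM at 5 h and 3.02 CPM at 12 h. It passed the filter only through its activated libraries, so no p-value is given for it. SPI1, which encodes PU.1, had 0 counts in every library.

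Of 10 tested partners of the IRF2BP proteins, 5 rose and 3 fell at 5 h against 0 h (median log2 fold change 0.06), and 4 rose and 3 fell at 12 h against 0 h (0.15). NFATC2, which encodes NFAT1, averaged 51.0 ± 5.07 CPM at 0 h, 82.1 ± 7.68 CPM at 5 h and 86.7 ± 7.80 CPM at 12 h (log2 fold change 0.69 at 5 h, edgeR adjusted p = 1.79e-05). VGLL4 rose at 5 h (0.49, adjusted p = 9.99e-05) and so did its DNA-binding partner TEAD1 (0.83, adjusted p = 1.04e-05). CBFA2T3, a corepressor of the ETO family, fell in all 3 comparisons, with 144 ± 3.96 CPM at 0 h, 71.4 ± 1.59 CPM at 5 h and 29.2 ± 2.21 CPM at 12 h (-2.29 at 12 h against 0 h, adjusted p = 5.34e-14, and -1.28 at 12 h against 5 h, adjusted p = 5.4e-09).

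Of 59 tested target genes of IRF1 and ISGF3, 26 rose and 13 fell at 5 h against 0 h (median log2 fold change 0.26). At 12 h against 0 h 32 rose and 7 fell (0.41), and at 12 h against 5 h 12 rose and 12 fell (0.05). GBP5, an interferon-gamma-induced GTPase, averaged 1.75 ± 0.285 CPM at 0 h, 58.4 ± 5.06 CPM at 5 h and 35.2 ± 1.33 CPM at 12 h (log2 fold change 5.04 at 5 h, edgeR adjusted p = 7.35e-16). PARP9, a partner in interferon signalling, rose at 5 h (1.76, adjusted p = 3.21e-12) and was lower at 12 h than at 5 h (-0.79, adjusted p = 1.68e-06). Among the genes that fell was CMPK2, a mitochondrial nucleotide kinase, which averaged 42.0 ± 1.36 CPM at 0 h, 14.5 ± 0.932 CPM at 5 h and 14.4 ± 1.36 CPM at 12 h (-1.53 at 5 h, adjusted p = 2.19e-09). IFITM1, an antiviral membrane protein, fell at 5 h (-0.73, adjusted p = 5.74e-05). BST2, the virus tether tetherin, fell at 5 h (-0.48, adjusted p = 0.00669) and rose at 12 h against 0 h (0.68, adjusted p = 0.000184). PML, the scaffold of nuclear bodies, did likewise (-0.27, adjusted p = 0.0288, and 0.27, adjusted p = 0.0268). At 12 h against 5 h BST2 was higher (1.16, adjusted p = 1.88e-06), as was PML (0.54, adjusted p = 0.000307). IFI44L averaged 0.290 ± 0.257 CPM at 0 h and 2.26 ± 0.676 CPM at 12 h (log2 fold change 2.80). Its counts summed to 7 in the 0 h group, 9 in the 5 h group and 45 in the 12 h group. IFI44L passed the filter only through its 12 h libraries, so no p-value is given for it.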

How the data were processed

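Messenger RNA was measured in 9 Jurkat libraries, 3 at each of 0, 5 and 12 h. The authors deposited whole-number counts per Ensembl gene without normalization, with 16697 of 19569 genes above 0. They also deposited log2 values, listed for the 12692 genes with a count in every library, each equal to log2 of the count over 1 factor per library plus 1 (largest deviation 5.15e-14). The submitters' processing notes name cutadapt, RSEM, DESeq2 and GRCh38.p13, without role or version, so the counts may be rounded estimates. No source used here gives the annotation release or how strand was used. The labels call the libraries biological replicates without naming separate cultures, so the spread behind each p-value is that of these libraries and may be technical.

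Counts entered 1 quasi-likelihood fit in edgeR 4.0.16 (R 4.3.3) with TMM and filterByExpr (minimum count 10), which left 12036 genes. The threshold for a call was a Benjamini-Hochberg adjusted p under 0.05, and the common biological coefficient of variation was 0.0887. Library totals were 4222258 to 9359187 counts. Replicates of a group differed by more than sampling noise (chi-square over degrees of freedom 2.87 to 8.92), so depth alone does not give the precision. DESeq2 1.42.0, limma 3.58.1 on the deposited log2 values, RLE factors, no filter, a replicate block, fits of 2 groups, leaving out each library, another transcript length and Spearman's rho were alternatives. Coordinates and lengths are from GENCODE release 29, 1-based. The members and lists were chosen with earlier results of these data known. All 10 members are named, with, per list and comparison, called genes among the 3 with the largest change in each direction, the 3 genes most like each of the 3 most variable members, IRF5 and genes that overlap a member. Some genes of these lists are not reported here.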

Additional observations from a re-analysis of the deposited data

How the results depend on the processing

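The number of genes called stayed within 1.5 times its value under every alternative run. Leaving out 1 library gave 5139 to 6306 genes at 5 h against 0 h, 5517 to 6285 at 12 h against 0 h and 3284 to 4392 at 12 h against 5 h, and 83 to 97, 84 to 93 and 46 to 57 pathway genes. DESeq2 called 5416, 5657 and 3810 genes. The fit with a replicate block called 5981, 6176 and 4285 genes and changed no call of the 10 genes. Deviations of same-numbered libraries correlated between -0.183 and 0.243, and those of differently numbered libraries between -0.296 and 0.240. Between 5 h and 12 h the same-numbered values were 0.243, 0.190 and 0.028, and the others ran from -0.296 to 0.157. Whether the numbers pair the samples cannot be told from these values. Over 15 settings, 14 values of IRF2, IRF3 and IRF7 lost a call, as given with each gene above except that limma also lost IRF2 at 12 h against 5 h (0.28). Sign changed in 6 uncalled values, with the cause not tested. Leaving out 1 library gave -0.03 (without 5 h replicate 2) to 0.27 for IRF3 at 5 h against 0 h, and at 12 h against 5 h -0.10 to 0.08 (without 5 h replicate 2, and 0.01 without 12 h replicate 1) for IRF9, -0.13 to 0.01 (without 12 h replicate 1) for IRF2BP1 and -0.29 to 0.01 (without 5 h replicate 2) for IRF2BPL. For IRF2BPL at 12 h against 0 h it gave -0.02 (without 12 h replicate 3) to 0.13. Replicate 1 at 12 h was the shallowest library, and without it every called value of the 10 genes kept its call. Of the pathway genes named by the rule, in the comparisons that named them, 45 values in 15 results lost a call and none changed sign. Their values in other comparisons were not compared across settings. The counts limit IRF4 and IRF5 most.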
